A study of Homo sapiens with 12 samples.

Results

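MM.1S is an established human multiple myeloma cell line, derived from malignant plasma cells, and it was profiled here after 24 h of exposure to filanesib. Filanesib inhibits the kinesin spindle protein, the product of KIF11. The comparison set the 3 arrays titled F against the 3 arrays titled Control, which makes 6 of the 12 Affymetrix arrays of the study, and every row of the table with exactly 1 gene symbol entered it. There were 16098 such rows among 53617, and they stood for 14884 genes. The study also held 3 arrays titled PD and 3 titled FPD, so that it had 4 groups.

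Control cells received vehicle, and their source is labelled untreated. For F the treatment label gives 1 nM filanesib together with 10 nM dexamethasone, whereas the title and the treatment protocol shared by all samples give the letter F alone. PD cells received 500 nM pomalidomide with 10 nM dexamethasone, and FPD cells received filanesib at 1 nM in addition to both. All cells carried the genotype of this 1 cell line, and no arm of dexamethasone alone was analysed here. Nothing in the labels ties the arrays of 1 group to separate cultures. The p-values therefore rest on array-to-array spread, which may be technical, and with 3 arrays a group the precision is limited.

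Cells entering mitosis build a bipolar spindle, for which the motor KIF11 slides antiparallel microtubules apart and so separates the spindle poles. When KIF11 is inhibited the poles stay together, the spindle becomes monopolar and the spindle assembly checkpoint holds the cell before anaphase. Transcripts of most mitotic genes accumulate in the G2 phase and in mitosis, because the genes are repressed in quiescent and early cycling cells through elements in their promoters and are activated late in the cycle by B-MYB and FOXM1. Plasma cell tumours respond to this class of drug, and dexamethasone acts on the same cells through the glucocorticoid receptor, a transcription factor.

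The values are log2 expression values made by RMA, a method that gives all arrays a common distribution. Arrays of Control and F correlated at r = 0.9884 to 0.9914 within a group and at 0.9871 to 0.9923 between the groups, across all rows of the table. Several markers of plasma cells were high in the 6 arrays, but not all of them. SDC1, which encodes the plasma cell proteoglycan CD138, lay between 10.14 and 10.25, the myeloma surface antigen SLAMF7 between 10.57 and 10.80 and MZB1, a chaperone of antibody secretion, between 11.09 and 11.29. CD38 was lower, between 7.6 and 8.0, and CD27 lay between 4.12 and 4.50, close to the array medians. The B cell factor PAX5 lay between 4.50 and 4.92, a little above the array medians of 4.23 to 4.27. The myeloid genes CD14 and CD163 lay below these medians, between 3.40 and 3.58 and between 3.26 and 3.42. Other members of these lists were higher, with the lysosomal myeloid marker CD68 between 8.59 and 8.68, the B cell complement receptor CR2 between 6.87 and 7.09 and the epithelial keratin KRT18 between 7.33 and 7.66. Of the markers of other cell types 4 of B cells, 5 of T cells, 6 of myeloid cells and 2 of stroma and epithelium were measured, and 0 of them passed the test between F and Control (limma). The T cell gene CD28, also found on myeloma cells, lay between 11.08 and 11.28 and the T cell gene TRAT1 between 9.29 and 9.61. The F arrays of TRAT1 lay above all Control arrays (change 0.21, limma adjusted p = 0.823).

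In F 1 gene was higher than in Control and 0 were lower at an adjusted p under 0.05 (limma with Benjamini-Hochberg adjustment over all 14884 genes), which is 0.00672% of the genes for the higher direction. Without adjustment 895 genes had a p under 0.05, 465 of them higher in F (3.12% of the genes) and 430 lower (2.89%). Without F replicate 1 the 895 became 1413. No gene differed by a log2 change of 1 or more in either direction, where a log2 change is the F mean minus the Control mean. The changes ran from -0.99, for the microRNA locus MIR1299, to 0.87, and the middle of their distribution was narrow, with quartiles at -0.089 and 0.078 and a median of -0.0051. The median standard error of a gene's log2 change was 0.11. The 3 F arrays lay above all 3 Control arrays in 721 genes (4.84%) and below them in 767 (5.15%).

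The gene that passed the test was MIR4771-1, a microRNA locus. Its level was 3.70, 3.54 and 3.78 in the Control arrays and 4.50, 4.54 and 4.59 in the F arrays, so the groups did not overlap (log2 change 0.87 ± 0.11 SE, limma adjusted p = 0.0147). The Control level was below the array medians of 4.23 to 4.27, so signal above background is not established for it. The mature microRNA and its hairpin are shown because this locus carries the only call, as RefSeq gives them for GRCh38.p14, with the seed (bases 2 to 8 of the mature form) in capitals.
hsa-miR-4771: aGCAGACUugaccuacaauua
MIR4771-1 hairpin: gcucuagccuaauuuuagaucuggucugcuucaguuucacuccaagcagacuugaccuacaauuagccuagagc
The hairpin of MIR4771-1 lies at chr2:87194786-87194859 on the + strand. A second locus, MIR4771-2 at chr2:111771061-111771134 on the - strand, has the identical hairpin of 74 bases, so the signal cannot be assigned to 1 of the loci by sequence. MIR4771-1 had 2 rows in the table, with identical values on all arrays. Leaving out any single array of the 6 other than Control replicate 3 lost the call, with limma adjusted p-values from 0.0735 (without F replicate 1) to 0.162 (without Control replicate 2). Without Control replicate 1, F replicate 2 and F replicate 3 they were 0.0924, 0.121 and 0.0782.

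Genes of G2 and mitosis held most of the genes higher in F at the lowest p-values and none of the lower ones. A list of 146 such genes had 114 measured members, and none of them passed the test over all genes (limma). The list was chosen with earlier results of these data known, so its counts are a description and no test. Of the 20 genes higher in F at an unadjusted p under 0.001 (0.134% of all genes) 13 were members, and of the 6 lower at that level (0.0403%) 0 were. Among the 7442 genes whose mean over the 12 arrays was above the median gene, 111 were members. The 20 highest log2 changes of these genes held 8 members, the 50 highest held 15 and the 100 highest held 23, while the 20, 50 and 100 lowest held 0.

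The median log2 change of the 114 members was 0.196, beside -0.0051 for all genes, and 97 members had a positive change where 48.3% of all genes did. Their changes ran from -0.20 to 0.60, with quartiles at 0.079 and 0.321. In 51 members the F arrays lay above all Control arrays (4.84% of all genes) and in 2 below (5.15%), and 51 had an unadjusted p under 0.05 in the higher direction (3.12% of all genes) and 0 in the lower. In arrays of whole cultures a larger share of cells in mitosis and more RNA of these genes per cell cannot be told apart.

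All 3 F arrays showed the same direction for this list. The mean of its members, relative to the Control mean of each gene, was -0.028, 0.042 and -0.014 in the Control arrays and 0.145, 0.203 and 0.241 in the F arrays. F replicate 1 was the lowest of the 3 for 66 of 114 members. Single F arrays exceeded every Control array in 67, 77 and 81 members, and over all 14884 genes in 3298, 3786 and 3777. Leaving out each array in turn, and under the other settings tried, the median of the list stayed between 0.163 and 0.223.

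**Figure D1:**
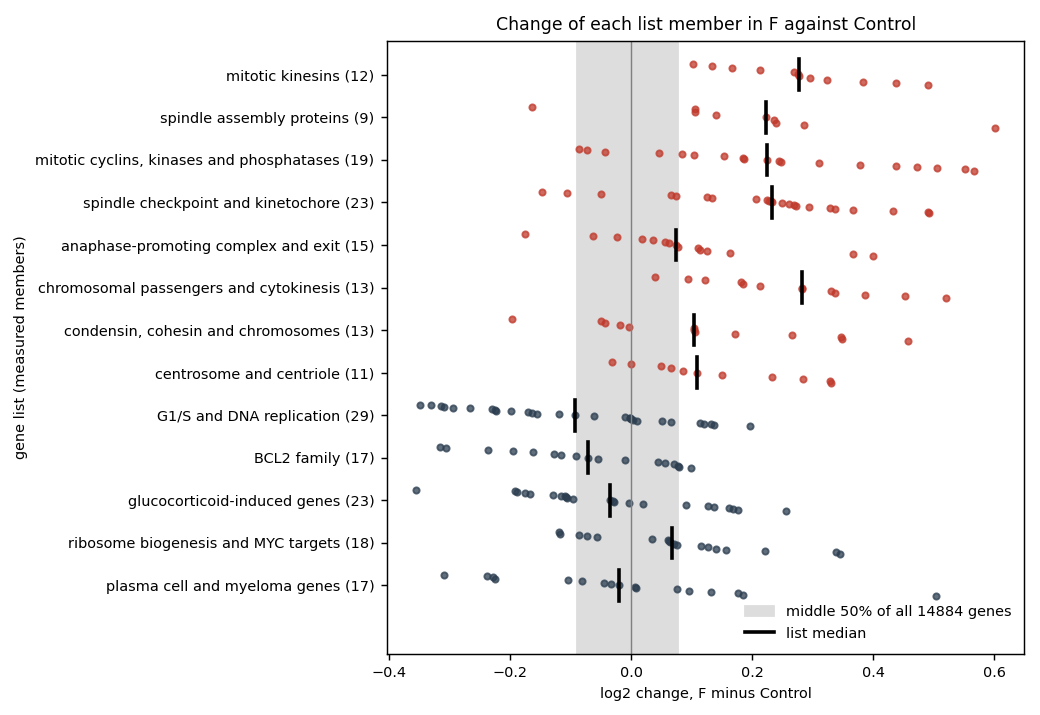
Log2 change of each measured member (points) of 13 gene lists, as the F mean minus the Control mean on a linear axis, with the median of each list as a black bar and the middle 50% of all 14884 genes as a grey band from -0.089 to 0.078. The medians of the lists of kinesins, spindle proteins, cyclins and kinases, the checkpoint and cytokinesis lie to the right of the band, at 0.222 to 0.283. Some members of these lists lie within the band or to its left. The medians of the condensin and centrosome lists lie nearer to the band but also to its right, at 0.104 and 0.109. That of the anaphase-promoting complex lies within the band, at 0.074. The replication genes have their median at -0.093.

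KIF11, the target of the drug, had log2 levels of 10.20, 10.25 and 10.18 in the Control arrays and 10.39, 10.42 and 10.62 in the F arrays. The F arrays all lay above the Control arrays, by a log2 change of 0.27 ± 0.10 SE that did not pass the test (limma adjusted p = 0.702). An inhibitor acts on the protein, so the transcript is no check of the labels.

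Promoters of the mitotic genes are shown because most members differed in the same direction. The 100 bases upstream of the start site are given for 10 genes, from 5′ to 3′ along the strand of the gene, as RefSeq gives them for GRCh38.p14. The letters TTTGAA, the core of the cell cycle genes homology region through which late cell cycle genes are repressed, and CCAAT, the box bound by NF-Y, were searched on both strands (TTCAAA and ATTGG on the other) and are in capitals. Matches may overlap, as in CCAATTGG.
KIF11 (chr10:92593030-92593129, + strand): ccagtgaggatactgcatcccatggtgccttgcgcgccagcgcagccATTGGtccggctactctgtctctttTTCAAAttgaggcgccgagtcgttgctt
KIF18A (chr11:28108157-28108256, - strand): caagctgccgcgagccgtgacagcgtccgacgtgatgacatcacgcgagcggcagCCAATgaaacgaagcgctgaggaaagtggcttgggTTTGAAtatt
HMMR (chr5:163460532-163460631, + strand): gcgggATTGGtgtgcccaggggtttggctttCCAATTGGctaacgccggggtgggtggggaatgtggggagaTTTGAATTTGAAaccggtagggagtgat
CCNB2 (chr15:59105046-59105145, + strand): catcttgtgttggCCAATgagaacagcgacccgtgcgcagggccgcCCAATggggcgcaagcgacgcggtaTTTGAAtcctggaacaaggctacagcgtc
PLK1 (chr16:23678789-23678888, + strand): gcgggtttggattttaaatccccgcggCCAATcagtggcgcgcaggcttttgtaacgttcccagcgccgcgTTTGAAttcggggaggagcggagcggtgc
CDC20 (chr1:43358881-43358980, + strand): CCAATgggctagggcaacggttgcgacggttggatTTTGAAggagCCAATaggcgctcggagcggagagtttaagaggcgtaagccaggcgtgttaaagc
DEPDC1 (chr1:68497083-68497182, - strand): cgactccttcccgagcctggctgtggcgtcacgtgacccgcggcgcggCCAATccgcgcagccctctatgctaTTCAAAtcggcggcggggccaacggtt
CCNB1 (chr5:69167050-69167149, + strand): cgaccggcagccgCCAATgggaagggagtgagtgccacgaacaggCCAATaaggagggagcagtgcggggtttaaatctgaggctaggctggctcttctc
NEK2 (chr1:211675622-211675721, - strand): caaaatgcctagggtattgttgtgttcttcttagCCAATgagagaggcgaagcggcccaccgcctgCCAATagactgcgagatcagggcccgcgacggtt
GINS2 (chr16:85688955-85689054, - strand): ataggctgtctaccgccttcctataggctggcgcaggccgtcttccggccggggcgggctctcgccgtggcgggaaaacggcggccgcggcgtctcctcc
In KIF11, HMMR, CCNB2, PLK1 and DEPDC1 the TTTGAA match nearest to the start site began 22 to 29 bases before it, in KIF18A 10 and in CDC20 65. In the stretches of CCNB1 and NEK2 the letters CCAAT stood without TTTGAA, and that of GINS2, a replication gene, held neither. The windows searched for all genes were 300 bases long, from 250 before to 50 after the start. Windows were held for 99 of the 114 members and for 10749 of all genes tested. TTTGAA was found in 58 of the 99 and in 1649 of the 10749, CCAAT in 67 and 4454, and both in 40 and 688. These are counts of genes with a match in any of their windows. Counted by window, TTTGAA was in 48.8% of the windows of the list and 12.1% of those of all tested genes. For CCAAT the shares were 59.8% and 34.3%, and for both 33.9% and 4.86%. Over all windows held, including those of genes not tested, the shares were 15.2% for TTTGAA, 34.6% for CCAAT and 5.9% for both. Of the 12 kinesin genes with a window 8 held both, as did 8 of 10 genes of chromosomal passengers and cytokinesis and 2 of 23 of replication. Counted singly, CCAAT was found in 15 of the 23 replication genes, unlike in the stretch of GINS2, and TTTGAA in 2. Within the list, the 40 genes with both had a median log2 change of 0.278 and the other 59 of 0.111. Outside the list, the 648 genes with both had a median of 0.002 and the other 10002 of -0.005. A match of letters is a description and no site of binding.

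Mitotic kinesins, the motors of the spindle and of cytokinesis, were measured for 12 of 13 members. All 12 had a positive log2 change (median 0.277, with 48.3% of all genes positive), and in 11 the F arrays lay above all Control arrays (4.84% of all genes). KIF18A, which dampens the movement of chromosomes at the metaphase plate, lay at 7.76, 7.83 and 7.74 in Control and at 8.11, 8.30 and 8.38 in F. This was the highest change of the family, 0.49 ± 0.09 SE (limma adjusted p = 0.155), and the arrays did not overlap. KIF20B, a kinesin of cytokinesis, lay at 8.57, 8.68 and 8.77 in Control and at 9.00, 9.02 and 9.31 in F (change 0.44, limma adjusted p = 0.512). KIF15, a motor that can take over work of KIF11 at the bipolar spindle, lay at 7.54, 7.73 and 7.46 in Control and at 7.92, 7.97 and 7.98 in F (change 0.38, limma adjusted p = 0.54). In both the F arrays lay apart from and above the Control arrays. The lowest changes were those of the minus-end-directed motor KIFC1 (0.13), whose arrays overlapped, and of the chromokinesin KIF22 (0.10), whose arrays did not.

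Spindle assembly proteins were measured for 9 of 18 listed genes, of which 8 had a positive change (median 0.222). HMMR, which helps to organise the spindle poles, lay at 8.82, 9.06 and 8.63 in Control and at 9.21, 9.55 and 9.55 in F. Its change of 0.60 ± 0.12 SE, a 1.52-fold higher level, was the highest of all members of the mitotic list (limma adjusted p = 0.198). CKAP2L, a microtubule protein of the spindle poles, had a change of 0.29, PSRC1 of 0.10 and NUMA1, which focuses the poles, of -0.16.

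**Figure D2:**
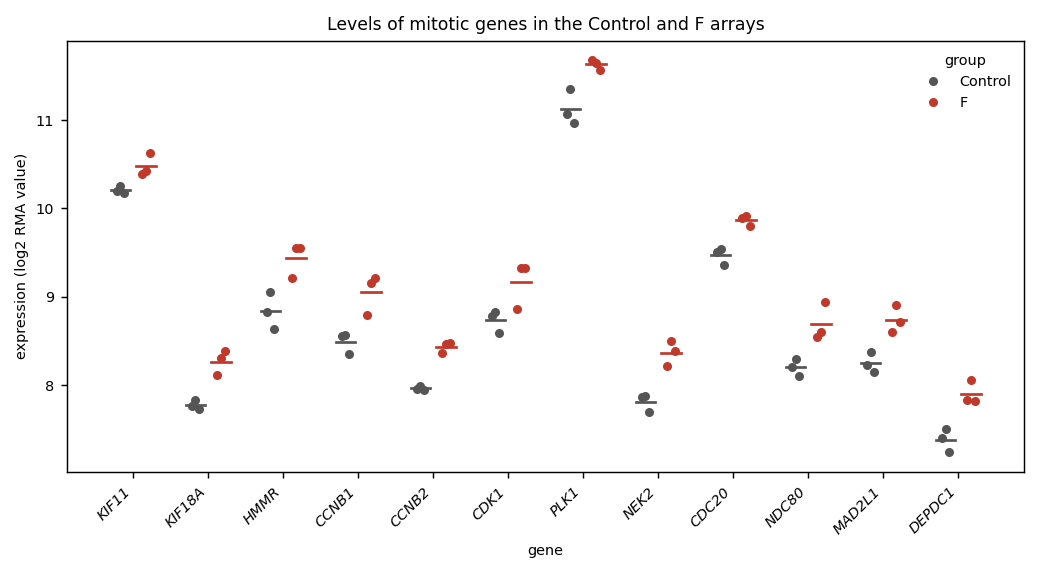
Log2 RMA level (y axis) of 12 genes of mitosis in each of the 3 Control and 3 F arrays, as 1 point per array with a line at the group mean. In every gene shown the F arrays lie above the Control arrays, for example at 8.80, 9.15 and 9.22 for CCNB1 against 8.55, 8.57 and 8.35. The 12 genes were picked for display. Of the 114 measured members of the mitotic list, 51 had all F arrays above all Control arrays and 2 had them below.

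Cyclins, kinases and phosphatases of mitosis were measured for 19 of 20 genes, with 16 positive changes and a median of 0.225. CCNB1, the cyclin that activates CDK1 at mitotic entry, lay at 8.55, 8.57 and 8.35 in Control and at 8.80, 9.15 and 9.22 in F. NEK2, a kinase of centrosome separation, lay at 7.87, 7.88 and 7.70 in Control and at 8.22, 8.50 and 8.38 in F. PLK1, a kinase of spindle formation and mitotic entry, lay at 11.07, 11.35 and 10.96 in Control and at 11.68, 11.65 and 11.57 in F. None of these overlapped between the groups, and the changes were 0.57 ± 0.11, 0.55 ± 0.10 and 0.51 ± 0.11 (SE), with limma adjusted p-values of 0.198, 0.155 and 0.292. CCNB2, the other mitotic B-type cyclin, lay at 7.96, 7.99 and 7.94 in Control and at 8.36, 8.47 and 8.48 in F (change 0.47 ± 0.09 SE, limma adjusted p = 0.155). NEK2 and CCNB2 passed the test when the variance was modelled with a trend and robustly (limma adjusted p = 0.0467 for both).

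The partner of the cyclins, CDK1, lay at 8.78, 8.83 and 8.59 in Control and at 8.86, 9.32 and 9.33 in F, with F replicate 1 just above the Control arrays (change 0.44, limma adjusted p = 0.606). FOXM1, a transcription factor of late cell cycle genes, lay at 8.97, 9.03 and 9.04 in Control and at 9.35, 9.14 and 9.29 in F (change 0.25, limma adjusted p = 0.702). The kinase AURKA, which matures centrosomes, lay at 7.91, 7.85 and 7.69 in Control and at 7.96, 8.10 and 8.06 in F (change 0.23, limma adjusted p = 0.835). FOXM1 and AURKA did not overlap between groups, whereas CCNA2, the cyclin of S and G2 phase, did (change 0.24, limma adjusted p = 0.754). The transcription factor MYBL2, or B-MYB, had a change of 0.10, and the lowest values were those of CDC25A (-0.07), a phosphatase that activates cyclin-dependent kinases, and WEE1 (-0.09), the kinase that restrains CDK1.

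Checkpoint and kinetochore genes, which hold anaphase until chromosomes are attached, were measured for 23 of 32, with 20 positive changes and a median of 0.232. NDC80, the microtubule-binding subunit of the kinetochore, lay at 8.20, 8.30 and 8.11 in Control and at 8.54, 8.60 and 8.94 in F. MAD2L1, which inhibits CDC20 in the checkpoint, lay at 8.23, 8.38 and 8.15 in Control and at 8.60, 8.90 and 8.71 in F. Both had a change of 0.49 without overlap (limma adjusted p = 0.54 and 0.243). TTK, the kinase that starts the checkpoint, had a change of 0.43, and the checkpoint kinase BUB1 and its relative BUB1B had changes of 0.33 and 0.23. In these 3 genes too the F arrays lay above all Control arrays. MAD1L1, the partner of MAD2L1, went the other way, from 6.33, 6.21 and 6.23 in Control to 6.17, 6.03 and 6.14 in F (change -0.15), and the centromere gene CENPM had a change of -0.11.

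Genes of the anaphase-promoting complex, the ubiquitin ligase that ends mitosis, were mixed. Of 15 measured genes of 16 listed, 12 had a positive change, with a median of 0.074. CDC20, the activator that the checkpoint restrains, lay at 9.51, 9.55 and 9.36 in Control and at 9.89, 9.92 and 9.80 in F, without overlap (change 0.40 ± 0.09 SE, limma adjusted p = 0.34). The subunit CDC27 had a change of 0.37 with overlapping arrays, the subunit CDC26 of -0.18 with the F arrays below all Control arrays, and FZR1, the activator of late mitosis and G1, of -0.06.

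All 13 measured genes of chromosomal passengers and cytokinesis, of 15 listed, had a positive change (median 0.283). In 10 the F arrays lay above all Control arrays (4.84% of all genes). DEPDC1 lay at 7.40, 7.50 and 7.24 in Control and at 7.83, 8.06 and 7.82 in F (change 0.52, limma adjusted p = 0.292). CEP55, which recruits the machinery of abscission, lay at 8.48, 8.42 and 8.38 in Control and at 8.78, 8.84 and 9.02 in F (change 0.45, limma adjusted p = 0.198). AURKB (0.09), the kinase of the passenger complex, and INCENP (0.04), its scaffold, had the lowest changes. INCENP had a value of -0.026 when 1 array was left out, so its direction was not stable.

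Condensin, cohesin and chromosome genes were mixed, with 8 of 13 measured members positive (median 0.104). The mitotic kinase PBK lay at 9.02, 9.06 and 8.86 in Control and at 9.28, 9.61 and 9.42 in F (change 0.46, limma adjusted p = 0.292), and SGO2, which protects centromeric cohesion, had a change of 0.35. TOP2A, the topoisomerase that untangles chromosomes, lay at 10.55, 10.52 and 10.63 in Control and at 10.79, 10.82 and 10.89 in F (change 0.27). These 3 did not overlap. The cohesin subunits SMC1A and STAG2 had changes of -0.20 and -0.05. MKI67, the proliferation marker that coats mitotic chromosomes, lay at 10.65, 10.48 and 11.21 in Control and at 10.92, 10.61 and 10.68 in F. Control replicate 3 was the highest of the 6, and without it the log2 change turned from -0.04 to 0.169. Of 11 measured centrosome genes 9 had positive changes (median 0.109), the highest for SASS6, the cartwheel protein of new centrioles, and the scaffold CEP152 (0.33 for both). None of the 15 tubulin genes listed was analysed here.

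The 10 highest and 10 lowest changes were ranked over genes whose mean lay above the median gene and whose groups did not overlap, so the separation is part of the rule. Of the 10 highest 6 were members of the mitotic list, namely HMMR, CCNB1, NEK2, DEPDC1, PLK1 and NDC80. TROAP, a microtubule-associated protein of the spindle, lay at 7.66, 7.80 and 7.63 in Control and at 8.36, 8.35 and 8.09 in F (change 0.57, limma adjusted p = 0.155). STAT4, a transcription factor of cytokine signalling, the pseudogene BMS1P4, whose probes can share signal with related copies, and the coiled-coil gene CCDC18 had changes of 0.51, 0.51 and 0.50.

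The 10 lowest held 0 members of the mitotic list. FBXL20, an F-box subunit of ubiquitin ligases, lay at 7.00, 7.03 and 7.26 in Control and at 6.33, 6.12 and 6.64 in F, a 1.66-fold lower level (change -0.73 ± 0.14 SE, limma adjusted p = 0.155). KLF2, a transcription factor of lymphocyte quiescence, lay at 9.35, 9.02 and 9.19 in Control and at 8.86, 8.61 and 8.84 in F (change -0.41, limma adjusted p = 0.572). EPAS1, a hypoxia-inducible transcription factor, lay at 6.29, 6.41 and 6.67 in Control and at 6.19, 5.80 and 6.11 in F (change -0.42, limma adjusted p = 0.606). The others were the noncoding transcripts GAS6-DT (-0.54) and URB1-AS1 (-0.47), the membrane receptor gene PAQR4 (-0.54), the pseudogene KRT42P (-0.50), the mitochondrial fission gene MTFP1 (-0.49), ANKRD18A (-0.46) and the dehydrogenase gene DHRS4 (-0.44). ANKRD18A, DHRS4 and KRT42P have close copies in the genome, so their signal may be shared, and the signal of URB1-AS1 is uncertain where it overlaps its sense gene.

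Replication genes of the G1 to S transition did not follow the mitotic genes. Of 48 listed 29 were measured, 9 with a positive change and a median of -0.093. In 10 the F arrays lay below all Control arrays (5.15% of all genes) and in 2 above (4.84%), and 8 had an unadjusted p under 0.05 in the lower direction (2.89% of all genes). The 8 became 5 without Control replicate 1 and 4 without Control replicate 2. The list mean relative to Control was 0.006, 0.033 and -0.039 in the Control arrays and -0.103, -0.090 and -0.085 in the F arrays. MCM5, a subunit of the replicative helicase, lay at 9.77, 9.65 and 9.75 in Control and at 9.44, 9.34 and 9.40 in F (change -0.33 ± 0.09 SE, limma adjusted p = 0.572). GINS2, a subunit of the complex that activates that helicase, lay at 7.60, 7.76 and 7.56 in Control and at 7.39, 7.36 and 7.12 in F (change -0.35 ± 0.13 SE, limma adjusted p = 0.702). The highest was MCM10, an initiation factor, at 8.68, 8.66 and 8.65 in Control and 8.84, 8.84 and 8.90 in F (change 0.20). None of these 3 genes overlapped between the groups, with MCM5 and GINS2 low and MCM10 high in F. With the arrays centred on their medians instead, 13 of 29 replication genes had a positive change and the list median was -0.07.

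**Figure D3:**
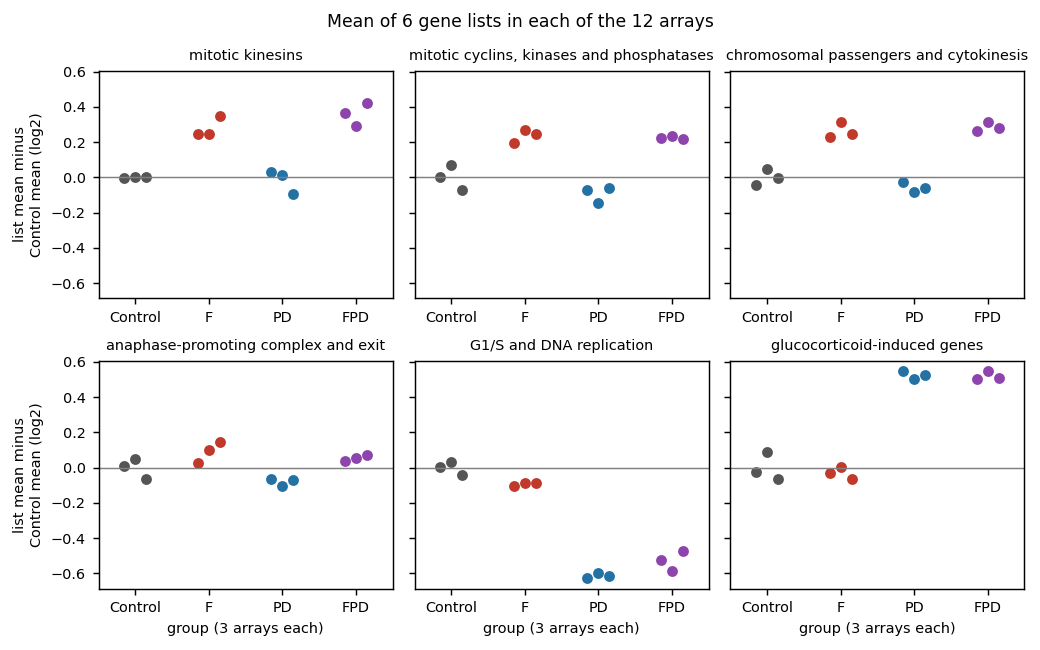
Mean log2 level of 6 gene lists in each of the 12 arrays, as the difference from the Control mean of each gene, with 1 point per array and groups in columns. The kinesin list reads 0.246, 0.248 and 0.347 in F and 0.364, 0.294 and 0.420 in FPD, above the Control arrays. The glucocorticoid-induced list reads -0.065 to 0.002 in F and 0.502 to 0.547 in PD. The median over the members of that list was lower than its mean in PD, at 0.261, 0.228 and 0.170.

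Glucocorticoid-induced genes bear on the dexamethasone that the treatment label names for F. Of 30 listed 23 were measured, 8 with a positive change in F and a median of -0.035, and the list mean was -0.030, 0.002 and -0.065 in the F arrays beside -0.022, 0.088 and -0.065 in the Control arrays. DDIT4, whose product restrains mTOR signalling, lay at 5.90, 6.06 and 6.02 in Control, at 5.92, 5.89 and 6.09 in F, at 10.44, 10.46 and 10.46 in PD and at 10.62, 10.59 and 10.62 in FPD. Control and F overlapped (change -0.03 ± 0.09 SE, limma adjusted p = 0.978), and PD exceeded F by 4.49 ± 0.09 SE (limma adjusted p = 7.93e-15).

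FKBP5, which encodes an HSP90-binding partner of the glucocorticoid receptor, lay at 5.54, 5.60 and 5.56 in Control, at 6.09, 5.56 and 5.58 in F and at 7.18, 7.04 and 6.95 in PD. F replicate 1 was the highest of the Control and F arrays and lay below every PD array. PIK3IP1, an inhibitor of PI3 kinase, lay at 5.41, 5.78 and 5.43 in Control, at 5.26, 5.22 and 5.08 in F and at 7.45, 6.95 and 7.32 in PD. PER1, a clock gene with glucocorticoid response elements, lay at 7.30, 7.49 and 7.52 in Control, at 7.64, 7.43 and 7.15 in F and at 8.05, 8.08 and 8.15 in PD. The F arrays of PIK3IP1 lay below all Control arrays (change -0.36), as did those of TMT1A (change -0.19), a lipid droplet methyltransferase, and those of PER1 overlapped. Of the 23 measured genes of this list, 3 had the F arrays below all Control arrays (5.15% of all genes) and 2 above (4.84%). PD exceeded F by 1.31 for FKBP5 (limma adjusted p = 2.48e-06), by 2.05 for PIK3IP1 (2.43e-07) and by 0.69 for PER1 (0.000539).

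Over all genes tested, 1106 were higher in PD than in F (7.43%) and 1475 lower (9.91%). Of the 23 glucocorticoid-induced genes 10 were higher in PD than in F and 3 were lower, the metallothioneins MT1X and MT2A and the receptor inhibitor ERRFI1, the last pair named after their values were seen. Against Control, 11 of the 23 were higher in PD and 1 was lower (limma), beside 1018 and 1284 of all genes. MT1X lay at 6.36, 6.50 and 5.93 in Control and at 6.44, 6.62 and 6.50 in F, which overlapped (change 0.26). PD differs from F also by pomalidomide, so the parts of pomalidomide and dexamethasone in these differences cannot be told apart. Whether the F cells received dexamethasone is not settled by the labels, and no arm of dexamethasone alone gives the size of its effect in these cells.

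**Figure D4:**
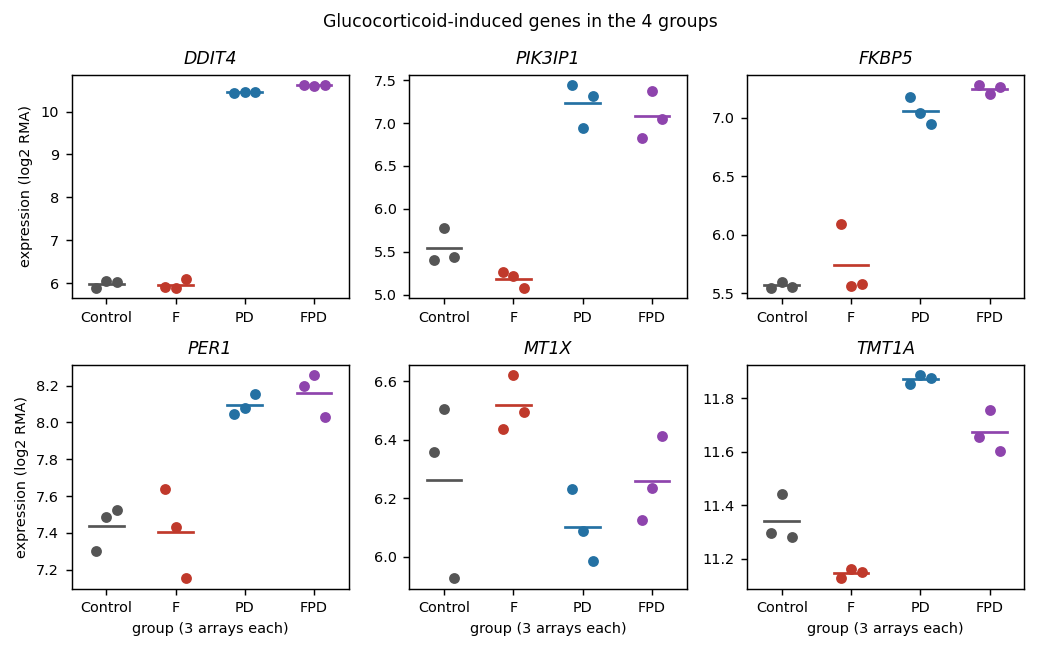
Log2 RMA level of 6 glucocorticoid-induced genes in the 4 groups, with 1 point per array and a line at the group mean. For DDIT4 the F arrays lie at 5.89 to 6.09, among the Control arrays, and the PD and FPD arrays lie at 10.44 to 10.62.

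Of 17 genes of the BCL2 family, which governs the release of cytochrome c, 6 were positive (median -0.072). In 2 the F arrays lay below all Control arrays and in 0 above (5.15% and 4.84% of all genes). BMF, a pro-apoptotic member, lay at 7.23, 7.13 and 7.47 in Control and at 7.08, 6.86 and 6.94 in F, below all Control arrays (change -0.32, limma adjusted p = 0.719), whereas PD exceeded F by 2.23 (limma adjusted p = 8.64e-09). The mitophagy receptor BNIP3L had a change of -0.31, and the anti-apoptotic BCL2 and MCL1 had changes of -0.24 and -0.13. The effector BAX had a change of 0.08 and BCL2L11, which encodes BIM, of -0.12. Of 7 genes of apoptosis execution 2 were positive (median -0.080).

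Stress and cytokine pathways had medians between -0.047 and 0.065. The immediate early genes (9 of 23 positive), the unfolded protein and integrated stress response (6 of 13) and NF-kB targets (4 of 14) had medians of -0.024, -0.020 and -0.047. Interferon-stimulated genes had 17 of 27 positive and a median of 0.065. IFIT3, an antiviral protein of that list, had levels of 3.61, 4.20 and 3.64 in Control and of 4.41, 3.74 and 4.11 in F, which overlapped widely. Genes of cholesterol synthesis had 8 of 15 positive and a median of 0.008. Ribosome biogenesis genes and MYC targets had 13 of 18 positive and a median of 0.067, and their list mean was 0.015, 0.064 and 0.148 in F beside -0.002, 0.055 and -0.053 in Control, so that F and Control overlapped. PNO1, a ribosome assembly factor, lay at 7.51, 7.69 and 7.45 in Control and at 7.70, 7.94 and 8.02 in F (change 0.34, limma adjusted p = 0.632).

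Plasma cell genes had 8 of 17 positive changes and a median of -0.020. An unadjusted p under 0.05 was reached by 1 in the higher direction, FCRL5, and by 4 in the lower, IRF4, NCAM1, IKZF1 and FGFR3 (3.12% and 2.89% of all genes), the last pair named after their values were seen. IRF4, the transcription factor on which myeloma cells depend, lay at 11.39, 11.50 and 11.44 in Control and at 11.23, 11.17 and 11.21 in F. The F arrays lay below all Control arrays, by a change of -0.24 ± 0.09 SE that did not pass the test (limma adjusted p = 0.702). IKZF1, a lymphoid transcription factor that pomalidomide directs to degradation, lay at 8.28, 8.37 and 8.52 in Control and at 8.21, 8.18 and 8.10 in F, again without overlap (change -0.23, limma adjusted p = 0.776). The adhesion molecule NCAM1 (-0.31) and the growth factor receptor FGFR3 (-0.23) overlapped between the groups. MYC lay at 10.61, 10.70 and 10.65 in Control and at 10.58, 10.58 and 10.45 in F (change -0.12). FCRL5, a surface receptor of the B lineage, had the highest change of the list (0.50, limma adjusted p = 0.54), at 2.78, 2.61 and 2.82 in Control and 3.38, 3.31 and 3.02 in F, all below the array medians.

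Filanesib was also added on top of pomalidomide and dexamethasone. The log2 changes of FPD minus PD use arrays other than the 6 of F and Control. The standard errors and p-values are not separate, because the variance of each gene was estimated from the arrays of all groups together. The comparison of FPD with PD had 5 genes higher (0.0336%) and 0 lower (limma). At an unadjusted p under 0.05 there were 1283 genes, of which 745 were higher in FPD (5.01%). In 1205 genes the FPD arrays lay above all PD arrays (8.1%). Across the 14884 genes, which are not independent, the log2 changes of F minus Control and FPD minus PD had a Pearson r of 0.135, and 0.113 outside the mitotic list. Within its 114 members, chosen with earlier results of these data known, r was 0.511.

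Of those members 112 were positive in FPD minus PD, with a median of 0.301, and 95 were positive in both comparisons. Of all 14884 genes 7712 were positive in FPD minus PD, with a median of 0.006, and 3928 in both. Among the 7442 genes above the median level, which held 111 of the members, 4646 were positive in FPD minus PD (median 0.041). In 84 members the FPD arrays lay above all PD arrays (8.1% of all genes, and 930 of the 7442). An unadjusted p under 0.05 in the higher direction was reached by 79 members (5.01% of all genes, and 579 of the 7442). KIF11 lay at 10.21, 10.09 and 9.99 in PD and at 10.34, 10.30 and 10.51 in FPD, a change of 0.28 beside 0.27 in F. CCNB2 lay at 8.40, 8.51 and 8.53 in PD and at 8.85, 8.88 and 8.99 in FPD, a change of 0.43 beside 0.47 in F. The PD arrays of CCNB2 lay already at the level of the F arrays, whereas those of KIF11 lay from 9.99 to 10.21, the highest of them among the Control arrays of 10.18 to 10.25. For HMMR the FPD minus PD change was 0.51, for CCNB1 0.45, for NEK2 0.49, for KIF18A 0.50 and for PLK1 0.32.

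**Figure D5:**
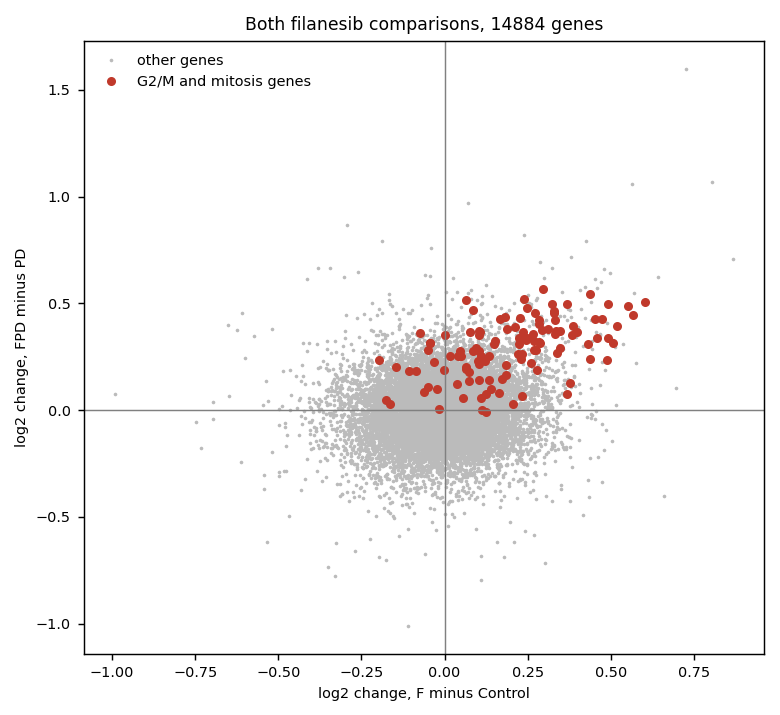
Log2 change in F minus Control (x axis) against that in FPD minus PD (y axis), with all genes in grey and the 114 measured members of the G2 and mitosis list in colour. Of the members 95 lie in the upper right field, where both changes are positive, as do 3928 of all 14884 genes. Within the list r = 0.511, and over all genes r = 0.135.

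The test of the difference between the comparisons called 0 genes (limma, lowest adjusted p = 0.888), with 833 at an unadjusted p under 0.05 (5.6%). In the mitotic list 9 of 114 reached that p, and in the replication list 9 of 29 did. Replication genes had a median of -0.093 in F minus Control and of 0.058 in FPD minus PD. In PD itself, 24 of the 29 were lower than in F (9.91% of all genes) and 1 was higher (7.43%). Against Control, 25 of the 29 were lower in PD, beside 1284 of all 14884 genes (limma). MCM5 and GINS2 had FPD minus PD changes of -0.00 and -0.01.

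The genes ranked highest in F all had a positive FPD minus PD change, from 0.30 to 0.64, with a median of 0.42. Among the 10 ranked lowest 5 were positive, and the changes ran from -0.50, for URB1-AS1, to 0.18, for MTFP1. FBXL20 had a change of -0.18 and EPAS1 of -0.00 in FPD minus PD.

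The genes called in FPD against PD were named because of their small number, after their values were seen. Their count was 0 without PD replicate 2, PD replicate 3, FPD replicate 1 or FPD replicate 3, and 3 without F replicate 1, F replicate 3 or FPD replicate 2. It was 11 without PD replicate 1 and 13 without Control replicate 3. MIR4771-1 was among them, at 3.42, 3.66 and 3.57 in PD and 4.50, 4.08 and 4.18 in FPD (change 0.71, limma adjusted p = 0.0363). PARPBP, an inhibitor of homologous recombination, had a change of 0.66 there (limma adjusted p = 0.0325) and of 0.48 in F (limma adjusted p = 0.287), where it lay at 6.74, 7.07 and 7.02 in Control and at 7.35, 7.54 and 7.36 in F. EBLN2, LOC100288637 and the microRNA locus MIR4521 had FPD minus PD changes of 1.06, 0.72 and 0.82 (limma adjusted p = 0.022 for each). Their changes in F were 0.56, 0.38 and 0.24, and the F arrays lay above all Control arrays for EBLN2 and LOC100288637 and overlapped them for MIR4521.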

How the data were processed

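MM.1S cells were measured on 12 Affymetrix arrays, 3 in each of 4 groups taken from the labels. The labels' protocols describe total RNA and a biotin label. Per the submitters' processing notes, the authors used RMA in Affymetrix Expression Console for the deposited log2 values. Their versions are not given in the sources used here. RMA sets arrays to a common distribution, so a change in total RNA per cell would not show, and it compresses low signals.

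The row with the highest mean stood for each of 779 genes with more than 1 row. The platform annotation named the rows, and 37519 rows without a symbol entered no comparison of genes. Group means of the 12 arrays were fitted in R 4.3.3 by limma 3.58.1, using lmFit and eBayes with 8 residual degrees of freedom. Tests were two-sided with Benjamini-Hochberg adjustment over 14884 genes, called at an adjusted p under 0.05. The model was tested on simulated data. Alternatives were other scalings, row choices and filters, the compared arrays alone, the replicate number as a block, other variance models and leaving out each array. The members and lists were chosen with earlier results of these data known. Named genes were those called (if 5 or fewer), the 10 highest and 10 lowest ranked as described, the 2 highest and 2 lowest of each list, and 35 fixed by name, of which 28 were measured. The other 7 were not analysed here, TPX2, TSC22D3, NR3C1 and ABCB1 among them.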

Additional observations from a re-analysis of the deposited data

Results flagged for a closer look

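Rows of the table without a gene symbol entered no comparison above. When all 53617 rows were fitted together, 29 unnamed rows were higher in F than in Control and 1 was lower (limma, adjusted p under 0.05 over all rows). The 29 rows held 28 distinct profiles, with log2 changes of 0.80 to 2.19, and 20 of them were also higher in FPD than in PD. The measured change of row 16810884 was 2.19, at 3.58, 3.62 and 3.80 in the Control arrays and 5.77, 6.13 and 5.68 in the F arrays (limma adjusted p = 0.00122). Its Control values lay below the array medians of 4.23 to 4.27, so signal above background is not established there and the size of the change is uncertain. In FPD minus PD its change was 2.46 (limma adjusted p = 0.000169). The row that was lower had a change of -0.93 (limma adjusted p = 0.041) and of 0.29 in FPD minus PD. Of the 29 higher rows 24 had identifiers below the lowest one that carries a symbol, as did 3575 of the 37519 unnamed rows. Which of these rows measure genes was not analysed here.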

How the results depend on the processing

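The count of 1 higher gene became 0 among genes above the median level and with the replicate number as a block, 2 over all rows with 1 symbol, 31 over all rows of the table, 4 with a trend and robust variance model (adding CCNB2, NEK2 and PRR11), and 0 to 2 when 1 array was left out. Without Control replicate 3 the second gene was MIR644A (log2 change 1.34, limma adjusted p = 0.0113). PRR11 and MIR644A were chosen after their values were seen. The count of lower genes became 1 over all rows. The 895 genes with an unadjusted p under 0.05 became 582 among genes above the median level, 2930 over all rows and 622 to 1413 when 1 array was left out, the highest without F replicate 1. With the replicate block 910 genes reached that p and MIR4771-1 had a limma adjusted p of 0.0623. Same-numbered arrays correlated at -0.256 to 0.158 in their deviations and different-numbered arrays at -0.203 to 0.234. Same-numbered arrays of F and FPD were all positive (0.117, 0.0828 and 0.124), as were those of Control and F (0.0787, 0.158 and 0.0183). Those of Control and PD were all negative (-0.256, -0.00563 and -0.0677). Whether the numbers pair the samples is therefore not settled. The median of the mitotic list stayed positive, at 0.185 with the arrays quantile normalized again and 0.219 with arrays centred, where the median of all genes was 0.0179. In FPD minus PD it was 0.251 after quantile normalization and 0.265 to 0.327 with 1 array left out. The 5 genes higher in FPD than in PD became 0 with the mean of a gene's rows or the replicate block, 8 with the compared arrays alone, 10 after quantile normalization or with array weights, 19 among genes above the median level, 28 with the trend and robust model and 93 over all rows, and 0 to 4 genes were lower. With 1 array left out, the log2 changes of DDIT4 (-0.091 to 0.011), INCENP (-0.026 to 0.091), MKI67 (-0.193 to 0.169), MT2A (-0.038 to 0.286), PER1 (-0.146 to 0.095), CR2 (-0.064 to 0.044) and KRT18 (-0.073 to 0.093) took either sign. CR2 was at 0.009 with arrays centred and KRT18 at -0.013 as the mean of its rows. No batch of scan or culture could be tested, as none is given in the sources used here.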
